A study of Mus musculus with 12 samples.

Results

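A set of 10 genes of the vessel wall that serve leukocyte adhesion or mark endothelial cells was followed through dextran sulfate sodium (DSS) colitis and berberine (BBR) treatment in mice. They were taken by symbol, as a set proposed with earlier results of these data known: Icam1, Vcam1 and Madcam1, the selectins Sele and Selp, the venular receptor Ackr1, and the endothelial genes Pecam1, Cdh5, Kdr and Plvap. All 10 were found among the 17734 genes of the deposited expression table. RNA had been sequenced from rectal tissue of 12 male C57BL/6 mice aged 8 to 10 weeks, 3 in each of 4 groups. Normal mice received neither agent, colitis mice drank 2.5% DSS for 7 days, normal mice receiving BBR were given 100 mg/kg of this plant alkaloid by gavage, and colitis mice receiving BBR had both. BBR was given for 6 days by the sample labels and 7 days by the study's methods, and the labels call the tissue colorectum. The animals are wild type, and DSS acts as a chemical injury to the bowel lining, so no group carries an allele.

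Leukocytes leave the blood through postcapillary venules in ordered steps. Selectins on the endothelium catch passing cells by their sugar-bearing ligands, chemokines shown on the vessel surface activate integrins on the caught cells, and the integrins then hold on to ICAM-1, VCAM-1 or, in the gut, MAdCAM-1, after which the cells pass between endothelial cells at junctions built from PECAM-1 and VE-cadherin. Inflammatory cytokines such as TNF and IL-1 are the textbook inducers of E-selectin, ICAM-1 and VCAM-1 in endothelium, while junctional proteins and VEGF receptors are made by resting vessels.

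In the GRCm38 annotation (GENCODE), the build of the reference used for location and not the mm9 named in the submitters' processing notes, Sele and Selp lie close together on chromosome 1, at 164048234 to 164057677 and 164115264 to 164150026, both on the plus strand. Ackr1 is on the same chromosome at 173331886 to 173333750. Icam1 is at 21015985 to 21028817 of chromosome 9, Vcam1 at 116109949 to 116129688 of chromosome 3 and Madcam1 at 79664559 to 79668537 of chromosome 10. Pecam1 spans 106654217 to 106750628 of chromosome 11, Kdr 75932827 to 75978458 of chromosome 5, and Plvap and Cdh5 start at 71497765 and 104101625 of chromosome 8. Exons of Ackr1 share bases with Cadm3 on the same strand, and exons of Icam1, Vcam1 and Selp share bases with noncoding genes on the opposite strand. Whether counting used strand is not given in the sources used here, so reads from these overlaps cannot be assigned.

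RefSeq sequence before the start of the gene was on hand for 6 of the 10 genes. The 250 bases before the start are shown for Icam1, Selp and Madcam1, the 3 genes of the 9 tested that were higher in colitis mice at an unadjusted P of at most 0.05. The start is that of RefSeq, which for Icam1 lies 45 bases before the start of the annotation above and for Selp and Madcam1 is the same base. The Ackr1 window lies nearly all within the annotated gene. They are written 5′ to 3′ in the direction of the gene, all from the plus strand of GRCm38.p6, at chr9:21015690-21015939, chr1:164115014-164115263 and chr10:79664309-79664558. Capitals mark exact matches to the NF-kappaB consensus GGGRNNYYCC, where R is A or G, Y is C or T and N is any base.
Icam1: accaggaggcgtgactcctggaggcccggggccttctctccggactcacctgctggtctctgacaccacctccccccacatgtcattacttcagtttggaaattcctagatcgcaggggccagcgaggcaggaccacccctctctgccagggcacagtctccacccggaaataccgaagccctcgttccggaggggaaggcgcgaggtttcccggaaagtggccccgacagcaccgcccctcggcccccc
Selp: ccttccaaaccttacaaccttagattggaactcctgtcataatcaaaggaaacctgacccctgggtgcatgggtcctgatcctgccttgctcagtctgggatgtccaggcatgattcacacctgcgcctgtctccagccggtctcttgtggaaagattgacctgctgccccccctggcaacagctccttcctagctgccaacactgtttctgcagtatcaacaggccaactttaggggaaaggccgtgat
Madcam1: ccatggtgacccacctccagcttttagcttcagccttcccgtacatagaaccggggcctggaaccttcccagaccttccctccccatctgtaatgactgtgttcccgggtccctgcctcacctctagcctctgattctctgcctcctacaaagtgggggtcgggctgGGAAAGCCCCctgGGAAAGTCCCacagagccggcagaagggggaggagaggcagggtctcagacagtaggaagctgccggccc

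Madcam1 had 2 matches to this consensus, 83 to 74 and 70 to 61 bases before the start. Among the other 5 genes with sequence, Kdr had a match 74 to 65 bases before the start, and the windows of Icam1, Selp, Sele and Ackr1 had none in either direction. The consensus, searched on both strands, was present in 7.3% of 32851 such windows. The ETS core CNGGAA was found in 5 of the 6 windows against 54.2% of all windows, and TATAAA only in that of Sele, 49 to 44 bases before the start, against 12.4% of all windows. A match describes these letters and is no evidence of a bound site.

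Levels are given as FPKM, a measure of read density per length of transcript and depth of library, a unit inferred from the values and scaled for transcript length. In normal mice the 2 highest means were those of Plvap, a protein of the diaphragms of fenestrated capillaries, at 15.7 ± 1.92 FPKM (SD, n = 3), and Pecam1, the junctional CD31 antigen, at 10.6 ± 0.236 FPKM (SD, n = 3). Vcam1, Cdh5, Ackr1, Kdr and Icam1 followed with means of 1.75 to 2.78 FPKM and overlapping mice, so their order cannot be told beyond the spread. Madcam1 had a mean of 0.807 FPKM, Selp 0.27 FPKM and Sele 0.023 FPKM. In colitis mice the order was Plvap, Vcam1, Icam1 and Pecam1, with means of 7.34, 6.42, 4.83 and 4.21 FPKM and overlapping ranges. Pecam1 thus stood 4th there and 2nd in the other 3 groups.

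**Figure D1:**
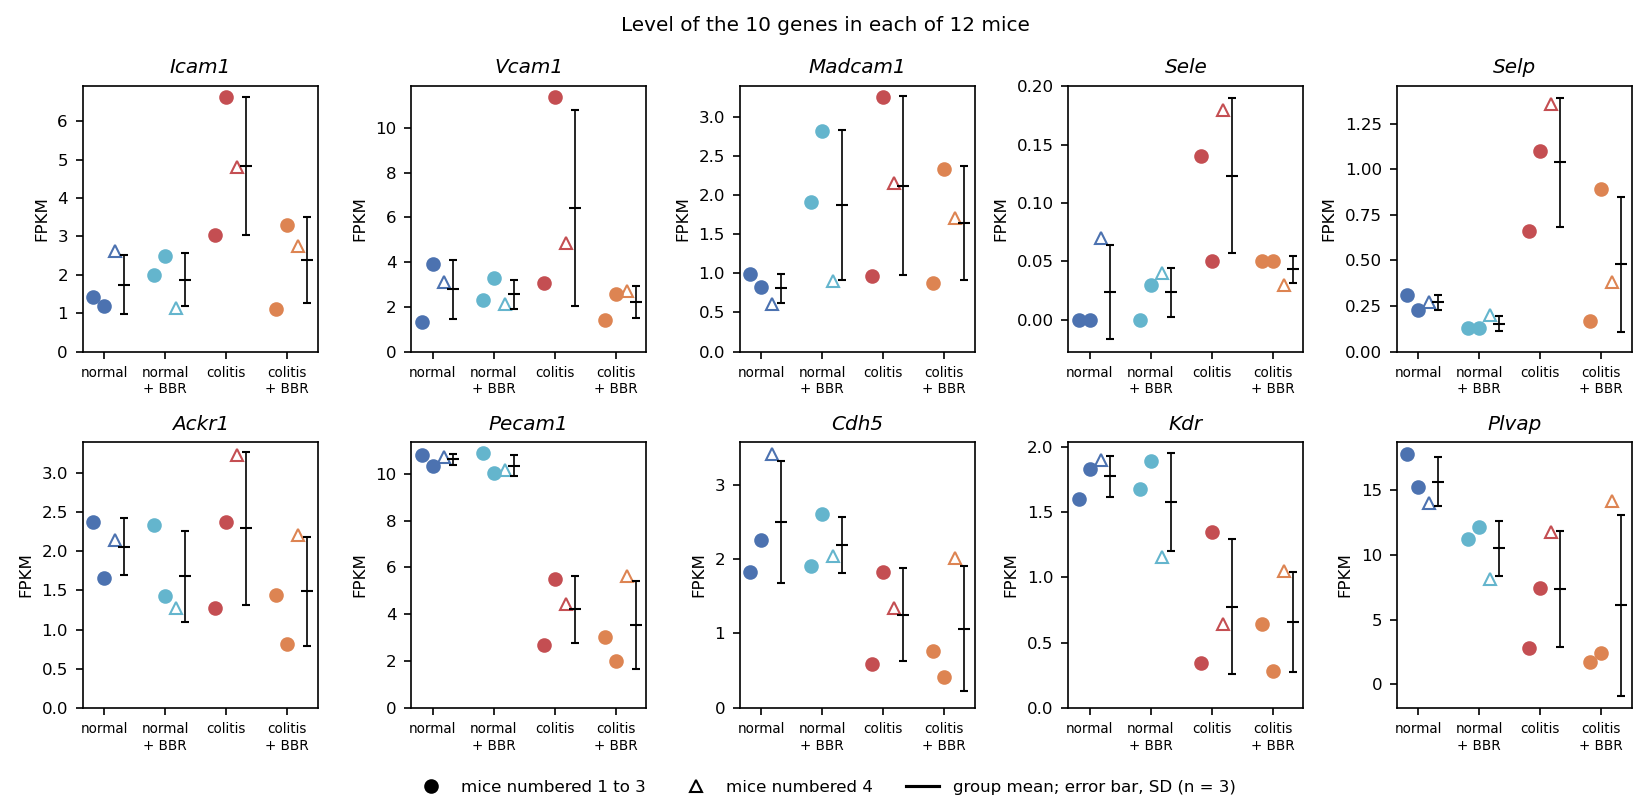
FPKM (y axis, linear, a scale of its own for each gene) of the 10 genes in each mouse of the 4 groups (x axis); filled circles are mice numbered 1 to 3, open triangles mice numbered 4, and the bar gives the mean and SD of 3 mice. Icam1 and Selp sit higher in every colitis mouse than in every normal mouse, Pecam1, Kdr and Plvap sit lower, and the colitis mouse numbered 2 has the highest Vcam1, at 11.4 FPKM.

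Depth could only be inferred, since the table gives no read counts. The 4 mice numbered 4, 1 in each group, stood apart with column totals of 482194 to 504337 FPKM against 696286 to 765876 in the other 8, and with fewer genes at 0 (872 to 1086 against 1332 to 1926). The labels do not name them as a batch, and differences within the mice numbered 1 to 3 and within those numbered 4 are given beside the results. From the steps between low values, 1 read was worth 50.75 to 57.75 FPKM times bases of transcript for the mice numbered 4 and 72.75 to 80.25 for the remaining 8, which were thus read less deeply, and floors from these steps cover counting error only. Of the 10 genes, 9 passed the filter of a mean of at least 0.1 FPKM over the 12 mice and were tested with limma on log2(FPKM + 0.1) in a fit of all 15315 genes that passed. Fold changes below are on this scale, where those of weakly expressed genes come out too small, and Benjamini-Hochberg adjustment ran over the whole set of tested genes. For a single gene, an exact permutation test (two-sided) over 6 mice has a smallest possible p of 0.1. Mice are separate animals by their labels, and in bulk tissue fewer cells of a type and less RNA per cell cannot be told apart.

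Colitis mice were first compared with normal mice, the comparison that describes the injury itself. Icam1, Selp and Madcam1 were higher and Pecam1 and Kdr lower, each at the limit that the study's methods set, an unadjusted P of at most 0.05, which Vcam1, Ackr1, Cdh5 and Plvap did not pass. These are 3 of 9 tested genes higher and 2 of 9 lower, where 5.56% of all tested genes were higher and 15.9% lower at this limit. None of the 9 passed the adjusted limit of 0.05 in limma, which 1.08% of all genes did, and the lowest adjusted p was 0.0742 for Pecam1. Icam1 and Selp were higher without overlap between the groups, as were 7.10% of all genes, and Pecam1, Kdr and Plvap were lower without overlap, as were 22.2%. The median log2 fold change of the 9 genes was 0.07 against -0.32 for all genes, and quantile normalization brought the all-gene median to -0.05.

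Icam1 encodes the ligand of the leukocyte integrins LFA-1 and Mac-1. It was at 1.43, 1.19 and 2.62 FPKM in the normal mice numbered 1, 3 and 4 and at 3.04, 6.64 and 4.81 FPKM in the colitis mice numbered 1, 2 and 4. Every colitis mouse was above every normal mouse. The log2 fold change was 1.43 ± 0.48 (SE), or 1.74 above the all-gene median, with an adjusted p of 0.134. It was 1.71 within the mice numbered 1 to 3 and 0.85 within those numbered 4.

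Selp encodes P-selectin, which endothelial cells and platelets store in granules and show on their surface when activated. Normal mice had 0.31, 0.23 and 0.27 FPKM and colitis mice 0.66, 1.10 and 1.36 FPKM. All colitis mice thus exceeded all normal mice, and all 12 mice exceeded the worth of 3 reads on this transcript, 0.0449 to 0.071 FPKM. The log2 fold change was 1.58 ± 0.46, or 1.90 above the all-gene median, with an adjusted p of 0.103. With quantile normalization it was 1.97 with an adjusted p of 0.0435, where 1.68% of all genes passed the adjusted limit. Of 5 tested platelet and megakaryocyte markers, 3 were higher and 2 lower and none passed either limit. The summed level of all 10 of these markers was 19.2 to 29.8 FPKM in normal mice, 12.2 to 43.6 in colitis mice, 20.2 to 32.1 in normal mice receiving BBR and 10.99 to 21.0 in colitis mice receiving BBR, with Treml1 at 0 in 10 mice. Pf4, a platelet chemokine, made up 70.1% to 95.6% of these sums, and without it they were 1.78 to 2.98, 3.25 to 5.14, 1.4 to 3.05 and 1.93 to 2.63 FPKM in the same order of groups.

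Sele, the gene of E-selectin, is made almost only by activated endothelium and was the 1 gene below the filter. It was listed at 0, 0 and 0.07 FPKM in normal mice and at 0.14, 0.05 and 0.18 FPKM in colitis mice. The other groups had 0 to 0.05 FPKM. The worth of 3 reads on its transcript was 0.0532 to 0.0841 FPKM over the 12 mice, with colitis mice 1 and 4 above this whole range and normal mouse 4 within it. With no filter its log2 fold change was 0.86 ± 0.28 with an unadjusted P of 0.0113 and an adjusted p of 0.148 in limma, a size that depends on the pseudocount. It thus passed the unadjusted limit in that fit, in which Madcam1 did not.

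Vcam1, the ligand of the leukocyte integrin VLA-4, had 1.32, 3.92 and 3.11 FPKM in normal mice and 3.05, 11.4 and 4.84 FPKM in colitis mice. The groups overlapped, and the colitis mouse numbered 2 was far above the rest. Its log2 fold change was 1.10 ± 0.51 with an adjusted p of 0.237 and a 95% interval from -0.013 to 2.202, and it was 0.58 without that mouse. Madcam1, the gut-homing ligand of the alpha4beta7 integrin, had 0.99, 0.82 and 0.61 FPKM in normal mice and 0.97, 3.25 and 2.15 FPKM in colitis mice. Colitis mouse 1 lay within the normal range and the other two lay above it. The log2 fold change was 1.17 ± 0.52 with an adjusted p of 0.223. Of 11 B cell and follicle markers, a compartment where MAdCAM-1 venules are found, 2 were higher and 9 lower, and their summed level was 8.26 to 34.3 FPKM in normal mice, 21.6 to 145 in colitis mice, 6.10 to 33.2 in normal mice receiving BBR and 9.59 to 21.0 in colitis mice receiving BBR. Cxcl13, the B cell chemokine, made up 84.9% to 92.7% of that sum in colitis mice, and without it the sum was 4.66 to 28.5 FPKM in normal mice, 3.27 to 10.6 in colitis mice, 4.36 to 25.0 in normal mice receiving BBR and 2.25 to 12.9 in colitis mice receiving BBR. Cxcl13 rose by 3.42 ± 0.66 on the log2 scale (adjusted p = 0.0362), and Glycam1 was at 0 in 7 mice. The part of these cells in the Madcam1 values was not tested.

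Ackr1 encodes the atypical receptor that binds and carries chemokines in venules, and is also the Duffy antigen of red cells. Normal mice had 2.38, 1.66 and 2.14 FPKM and colitis mice 1.28, 2.37 and 3.23 FPKM, so the colitis range enclosed the normal one. The log2 fold change was 0.07 ± 0.43 with a 95% interval from -0.86 to 1.00, and its sign changed when colitis mouse 4 was left out (-0.21). Erythroid markers ranged widely, with 5 of 6 tested higher and 1 past the unadjusted limit (5 with the 8 mice numbered 1 to 3), and a summed level of 10.1 to 85.6 FPKM in normal mice, 30.6 to 610.3 in colitis mice, 26.4 to 81.3 in normal mice receiving BBR and 11.8 to 247 in colitis mice receiving BBR. Slc4a1 was at 0 in 6 mice, and the part of red cells in the Ackr1 values was not tested.

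Pecam1 had the smallest relative spread of the 10 genes in both normal groups. Normal mice had 10.8, 10.4 and 10.7 FPKM and colitis mice 2.68, 5.52 and 4.43 FPKM. All colitis mice were lower than all normal mice, and the coefficient of variation was 2.2% in normal and 34.0% in colitis mice. The log2 fold change was -1.37 ± 0.35, or -1.06 relative to the all-gene median, with an adjusted p of 0.0742. It was -1.43 within the mice numbered 1 to 3 and -1.26 within those numbered 4, and a block for the mice numbered 4 gave an adjusted p of 0.0317, in a fit where 9.22% of all genes passed the adjusted limit.

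Kdr, the main signaling receptor of VEGF-A, had 1.60, 1.83 and 1.90 FPKM in normal mice and 0.34, 1.35 and 0.64 FPKM in colitis mice. All colitis values were lower, with a log2 fold change of -1.27 ± 0.49 and an adjusted p of 0.176. Cdh5, which encodes VE-cadherin of the adherens junction, had 1.83, 2.25 and 3.41 FPKM in normal mice and 0.59, 1.83 and 1.34 FPKM in colitis mice. The groups met at 1.83 FPKM, and the log2 fold change of -1.02 ± 0.52 had an adjusted p of 0.269. Plvap had 17.8, 15.2 and 14.0 FPKM in normal mice and 2.82, 7.43 and 11.8 FPKM in colitis mice. The groups did not overlap, yet the colitis mice were spread from 2.82 to 11.8 FPKM, and the log2 fold change of -1.30 ± 0.67 had an adjusted p of 0.275. The Plvap difference was -1.82 within the mice numbered 1 to 3 and -0.25 within those numbered 4.

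Leaving out single mice changed this comparison in part. Icam1, Selp and Pecam1 passed the unadjusted limit in each of the 6 fits that left out a mouse, whereas Kdr passed in 2 and Madcam1 in 1 of them. Vcam1 passed in 2, Cdh5 in 1 and Plvap in 1, and the count was 3 to 5 of the 9 genes. With the 8 mice numbered 1 to 3 alone, Icam1 passed as higher, with 6.07% of all genes, and Pecam1 and Plvap as lower, with 27.4%, and after quantile normalization Icam1, Vcam1, Madcam1 and Selp passed as higher and Pecam1 as lower. That scaling also moved the split of all genes at this limit, from 852 higher and 2428 lower to 1488 higher and 1521 lower.

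**Figure D2:**
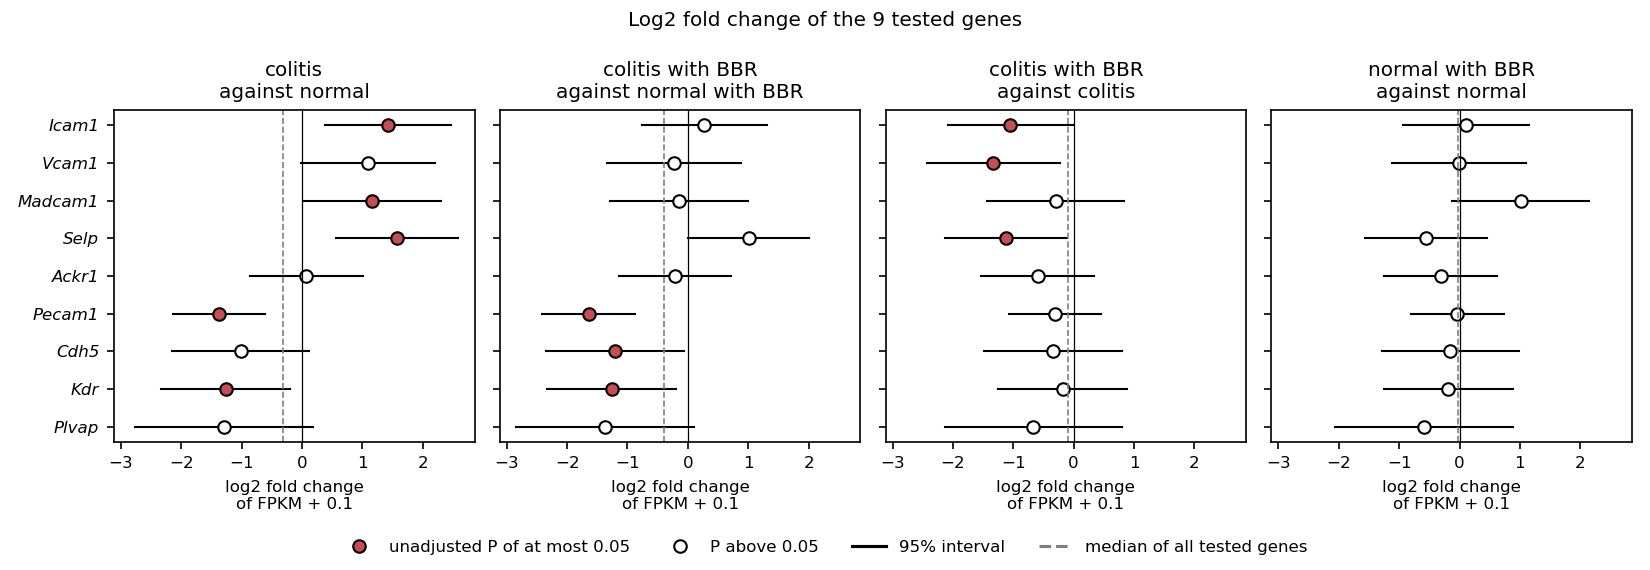
Log2 fold change of FPKM + 0.1 (x axis) of the 9 tested genes (rows) in 4 comparisons of 3 mice against 3; lines are 95% intervals of the limma fit, red points have an unadjusted P of at most 0.05 and the dashed line is the median of all 15315 tested genes. In colitis against normal Icam1 to Selp lie to the right and Pecam1 to Plvap to the left, and with BBR in both groups only the leftward values are past the limit.

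Other vascular genes were read from lists chosen with earlier results of these data known, so their counts describe them only, and 8 genes stand in 2 of the lists. Of 32 endothelial identity genes, all tested, 28 were lower and 4 higher in colitis than in normal mice, 9 were lower and none higher at the unadjusted limit, and the median was -0.80 against -0.32 for all genes. After quantile normalization 5 were lower and 2 higher at this limit. Clec14a, a C-type lectin of endothelial cells, passed the adjusted limit (-1.99 ± 0.37, adjusted p = 0.0312). Of 20 other endothelial adhesion and junction genes, 8 were lower and 2 higher at the unadjusted limit, with a median of -0.74. Cd34, a sialomucin of capillary endothelium that also marks stromal and progenitor cells, fell by 1.79 on the log2 scale (adjusted p = 0.0449), and Cd47, the widely expressed ligand of SIRPalpha, rose by 1.16 (adjusted p = 0.0477). Of 20 tested genes of the VEGF and angiopoietin system, 3 were lower, among them the VEGF co-receptor Nrp2 (-1.78 ± 0.54, adjusted p = 0.113) and the angiopoietin receptor Tek (-1.16 ± 0.44, adjusted p = 0.173), and 1 was higher, the hypoxia factor Hif1a (0.59 ± 0.26, adjusted p = 0.221). Quantile normalization made these counts 2 lower and 2 higher, and the 8 mice numbered 1 to 3 gave 6 lower and none higher. Of all genes 15.9% were lower and 5.56% higher at this limit in the main fit. The shares were 9.93% and 9.72% after quantile normalization and 27.4% and 6.07% with the 8 mice. The counts of the VEGF and angiopoietin system are thus near those of all genes. None of 8 lymphatic endothelial genes passed either limit, with a median of -0.47, which was -0.03 after quantile normalization, -0.13 with median centring and 0.04 with the 8 mice, where 1 gene was lower at the unadjusted limit. The replicate block gave a median of -0.73 with 3 genes lower.

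Pericyte genes and genes of smooth muscle, most of which in the bowel belongs to the muscle of the wall, were read beside them. Of 10 pericyte genes 8 were lower, 5 at the unadjusted limit, with a median of -1.15, and their summed level was 40.9 to 66.5 FPKM in normal mice, 10.5 to 45.1 in colitis mice, 47.1 to 75.7 in normal mice receiving BBR and 13.01 to 39.5 in colitis mice receiving BBR. Higd1b was the pericyte gene at 0 in any mouse, in 3 of them. All 14 smooth muscle genes were lower, 12 at the unadjusted limit, with a median of -2.92. Their summed level was 1745 to 3377 FPKM in normal mice, 93.8 to 742 in colitis mice, 2451 to 5363 in normal mice receiving BBR and 512 to 3727 in colitis mice receiving BBR, and none was at 0 in a mouse. After quantile normalization 4 pericyte genes were lower and 1 higher at the limit, and 11 smooth muscle genes were lower. The part of these cells in the lower endothelial values was not tested.

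The partners of the adhesion genes on leukocytes were read the same way. Of 16 integrin and selectin ligand genes, 3 were higher in colitis mice at the unadjusted limit and 1 lower, with a median of 0.30, and 5 were higher after quantile normalization (median 0.74). Itgam and Itgb2, the chains of Mac-1, which binds ICAM-1, rose by 1.25 ± 0.40 (adjusted p = 0.124) and 1.04 ± 0.39 (adjusted p = 0.164). The LFA-1 chain Itgal had a log2 fold change of 0.59 ± 0.49, Itga4, shared by the VCAM-1 and MAdCAM-1 receptors, -0.36 ± 0.46, Itgb7, the gut-homing chain, 0.49 ± 0.43, and Selplg, the P-selectin ligand, 0.59 ± 0.44, and none of these 4 passed the limit. All 10 pan-leukocyte genes were higher, 3 at the limit (7 with the 8 mice numbered 1 to 3), and their summed level was 74.4 to 86.1 FPKM in normal mice, 90.7 to 261 in colitis mice, 47.1 to 138 in normal mice receiving BBR and 43.4 to 119 in colitis mice receiving BBR. None was at 0 in a mouse. All 15 tested granulocyte genes were higher, 13 at the limit, with a median of 3.56. Their summed level, with the 1 untested gene, was 264 to 709 FPKM in normal mice, 634 to 4259 in colitis mice, 420.4 to 794 in normal mice receiving BBR and 492 to 2991 in colitis mice receiving BBR, and Elane was at 0 in 9 mice and Ngp in 8. Ly6g alone made up 98.4% to 99.8% of the sum in normal mice, and S100a8 was at 0 in all 6 mice without DSS. Without Ly6g the sum was 0.71 to 4.15 FPKM in normal mice, 76.8 to 548 in colitis mice, 1.38 to 3.5 in normal mice receiving BBR and 4.13 to 242 in colitis mice receiving BBR. Immune, stromal and epithelial cells also make ICAM-1 and VCAM-1, and their part in the Icam1 and Vcam1 values was not tested.

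Among 20 genes of the cytokines that activate endothelium, their receptors and NF-kappaB, 6 were higher at the unadjusted limit, 4 at the adjusted limit, and none lower. Tnf rose by 5.08 ± 0.74 on the log2 scale (adjusted p = 0.0141), Il1b by 5.11 ± 1.01 (adjusted p = 0.0392) and Il4ra, a chain of the interleukin-4 receptor, by 2.23 ± 0.46 (adjusted p = 0.0477). Of 10 tested genes for the glycosylation of selectin ligands, 2 were lower at the unadjusted limit and none higher, near the 15.9% of all genes that were lower. These 2 were the sialyltransferases St3gal4 (-0.86 ± 0.38, adjusted p = 0.224) and St3gal6 (-0.84 ± 0.25, adjusted p = 0.108). With median centring none was lower at the limit, and the median of the list went from -0.63 to -0.29.

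**Figure D3:**
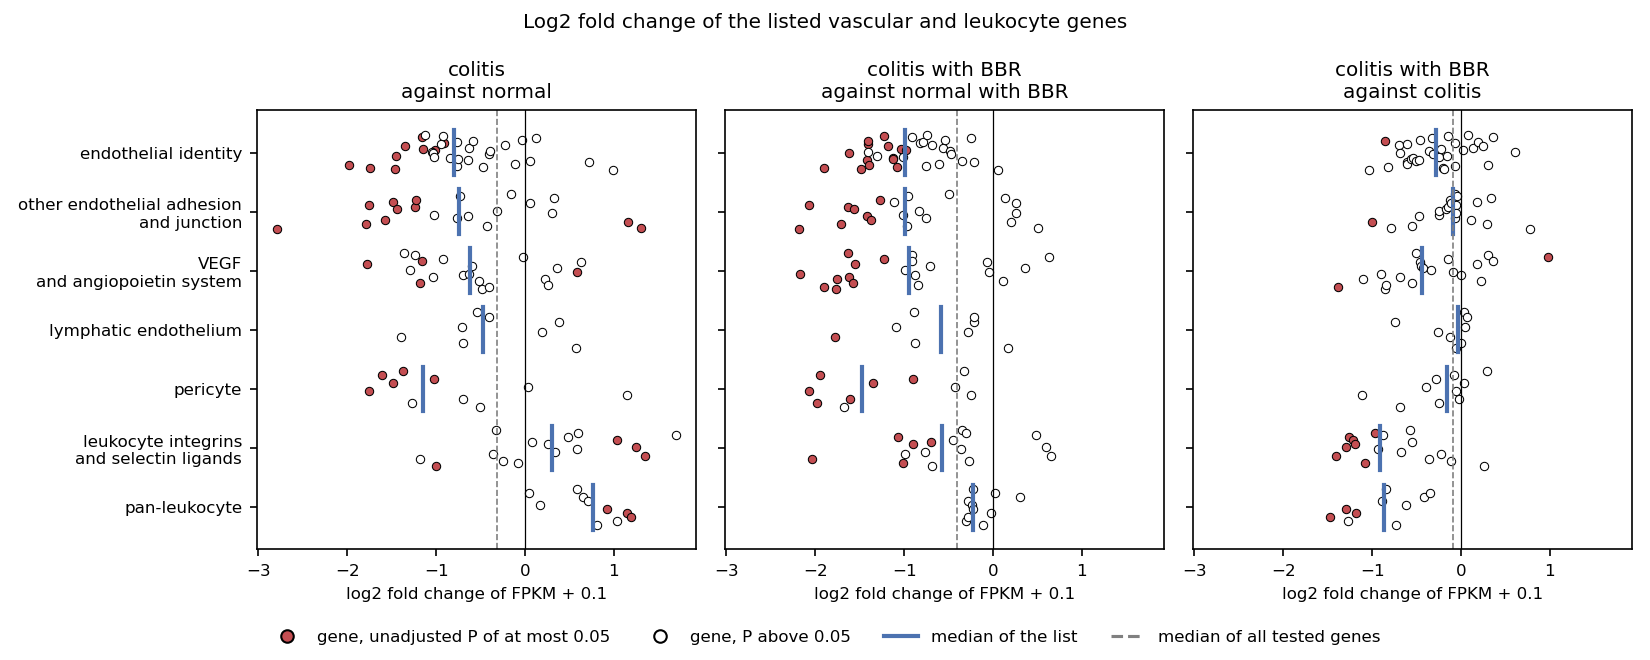
Log2 fold change of FPKM + 0.1 (x axis) of each gene in 7 lists of vascular and leukocyte genes (rows) in 3 comparisons; each circle is a gene, red at an unadjusted P of at most 0.05, the blue bar is the median of the list and the dashed line that of all tested genes. The medians of endothelial identity genes are -0.80 and -0.99 in the comparisons with normal mice and -0.28 in colitis with BBR against colitis, while those of the integrin list are 0.30, -0.57 (-0.09 after quantile normalization) and -0.91.

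Colitis mice receiving BBR were then compared with colitis mice, which asks what BBR changed in the inflamed bowel. This comparison shares the colitis mice with the preceding one, so the opposite signs of the adhesion genes in both are not independent. All 9 genes had lower estimates, with a median of -0.60 against -0.09 for all genes. At the unadjusted limit 3 were lower, the adhesion genes Vcam1, Icam1 and Selp, and none higher, where 5.20% of all genes were lower and 1.19% higher. No gene of the whole table passed the adjusted limit in limma (0% of all genes), and the lowest adjusted p among the 9 was 0.651, for Vcam1. Vcam1 alone was lower without overlap, as were 5.66% of all genes, and none was higher without overlap, as were 1.42%. After quantile normalization Vcam1 and Selp passed the unadjusted limit, and all genes split into 485 higher and 630 lower in place of 182 and 796.

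Vcam1 had 1.41, 2.57 and 2.69 FPKM in the colitis mice receiving BBR numbered 2, 3 and 4, all below the lowest colitis mouse at 3.05 FPKM. Its log2 fold change was -1.33 ± 0.51, with -1.58 within the mice numbered 1 to 3 and -0.82 within those numbered 4. Without colitis mouse 2 it was -0.82, and no gene of the set then passed the limit. Icam1 had 1.12, 3.29 and 2.75 FPKM with BBR, so that 1 mouse reached into the colitis range. The log2 fold change was -1.05 ± 0.48 (adjusted p = 0.771) and became -0.60 without the colitis mouse receiving BBR numbered 2. Selp had 0.17, 0.89 and 0.38 FPKM, with mouse 3 between the lowest and highest colitis mice and the others below. Its log2 fold change was -1.13 ± 0.46 (adjusted p = 0.704), or -0.67 without mouse 2 of the BBR group, and again no gene then passed the limit. Without colitis mouse 4 the limit was passed by Vcam1 only.

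Madcam1 overlapped widely, with 0.88, 2.34 and 1.71 FPKM under BBR and a log2 fold change of -0.30 ± 0.52 with a 95% interval from -1.44 to 0.84. Ackr1 had 1.44, 0.82 and 2.21 FPKM and a fold change of -0.60 ± 0.43 with an interval from -1.53 to 0.33. Sele was at 0.05, 0.05 and 0.03 FPKM, below the worth of 3 reads.

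The endothelial structural genes did not separate colitis mice with and without BBR, and the intervals are wide. Pecam1 had 3.02, 1.99 and 5.65 FPKM with BBR (-0.31 ± 0.35, interval -1.07 to 0.46), Cdh5 had 0.76, 0.42 and 2.01 FPKM (-0.34 ± 0.52), and Kdr had 0.64, 0.28 and 1.05 FPKM (-0.18 ± 0.49). Plvap was at 1.71 and 2.44 FPKM in mice 2 and 3 and at 14.1 FPKM in mouse 4, more than in any colitis mouse (-0.67 ± 0.67, interval -2.14 to 0.80). For these 4 genes the sign differed by mouse number: the differences were -0.63, -0.79, -0.59 and -1.13 within the mice numbered 1 to 3 and 0.34, 0.55, 0.64 and 0.26 within those numbered 4. Without mouse 4 of the BBR group, Pecam1 and Plvap passed the unadjusted limit together with Vcam1 and Icam1, as did 9.54% of all genes as lower.

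Of the integrin list, 15 of 16 genes had lower estimates in the same comparison, 7 at the unadjusted limit, with a median of -0.91. This count was 4 after quantile normalization (median -0.75) and 4 with the 8 mice numbered 1 to 3 (median -0.84). Itgam (-1.30 ± 0.40, adjusted p = 0.519), Itgb7 (-1.26 ± 0.43, adjusted p = 0.586) and Itgb2 (-1.22 ± 0.39, adjusted p = 0.554) were among them, as was Selplg (-0.97 ± 0.44, adjusted p = 0.772). All 10 pan-leukocyte genes were lower, 3 at the limit (2 after quantile normalization), with a median of -0.87, and their summed levels are those given above. Of 15 granulocyte genes 14 were lower, 5 at the limit (3 after quantile normalization), with a median of -1.94, among them the decoy receptor gene Il1r2 (-2.78 ± 0.84, adjusted p = 0.512). Of the 20 cytokine and receptor genes 18 were lower, 4 at the limit, with a median of -0.14, among them Il1b (-3.06 ± 1.01, adjusted p = 0.568). The part of these cells and cytokines in the lower adhesion gene values was not tested. Of the endothelial identity genes 24 of 32 were lower, 1 at the limit (Sox18, an endothelial transcription factor, -0.85 ± 0.36, adjusted p = 0.717), with a median of -0.28. Pericyte genes had a median of -0.16 with none past the limit, and all 14 smooth muscle genes were higher, 1 at the limit (3 with median centring and 7 with a block for the mice numbered 4), with a median of 1.29. Of 20 genes of the VEGF and angiopoietin system 15 had lower estimates, with a median of -0.44. At the unadjusted limit 1 was higher, Vegfa, the ligand of Kdr (0.98 ± 0.35, adjusted p = 0.631), and 1 lower, the Tek ligand Angpt2 (-1.39 ± 0.51, adjusted p = 0.633), which was named after its value was seen. With the 8 mice numbered 1 to 3 these counts were 1 higher and 5 lower, where 1.21% of all genes were higher and 6.21% lower.

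Normal mice receiving BBR and normal mice show what BBR did without injury. Pecam1 differed by less than its spread, with 10.9, 10.02 and 10.2 FPKM under BBR and a log2 fold change of -0.04 with a 95% interval from -0.80 to 0.73. None of the 9 genes passed the unadjusted limit, which 0.516% of all genes passed as higher and 0.842% as lower, and limma called none of them and none of all genes (0%) at the adjusted limit. Selp and Plvap were lower without overlap, as were 5.46% of all genes, and none was higher without overlap, as were 4.17%. Selp had 0.13, 0.13 and 0.20 FPKM (-0.55 ± 0.46) and Plvap 11.2, 12.2 and 8.10 FPKM (-0.59 ± 0.67). Madcam1 had the highest estimate, 1.01 ± 0.52 with an interval from -0.12 to 2.15: mice 1 and 3 had 1.91 and 2.82 FPKM, above every normal mouse, and mouse 4 had 0.90 FPKM. Without mouse 4 of the BBR group Madcam1 passed the unadjusted limit, where 0.653% of all genes were higher, and in a fit of these groups alone Madcam1 (1.44% of all genes higher) and Plvap (3.47% lower) did. Icam1 had 1.99, 2.5 and 1.13 FPKM and Vcam1 2.29, 3.30 and 2.11 FPKM, both across the normal range. Cdh5 (1.91, 2.61 and 2.04 FPKM), Kdr (1.68, 1.89 and 1.16 FPKM) and Ackr1 (2.34, 1.43 and 1.27 FPKM) overlapped normal mice as well. Summed pan-leukocyte, B cell and follicle, and smooth muscle levels under BBR alone, given above, overlapped those of normal mice. The median of the B cell and follicle list was -0.07, and 0.86 with the 8 mice numbered 1 to 3, with none past the unadjusted limit in either fit.

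Colitis mice receiving BBR against normal mice receiving BBR repeats the effect of DSS on 6 other mice, sharing none with the first comparison. Pecam1, Cdh5 and Kdr were lower at the unadjusted limit, 3 of 9 genes, where 17.3% of all genes were lower. None of the 9 was higher, where 2.37% of all genes were, and none passed the adjusted limit in limma, which 0.0392% of all genes did. Pecam1 and Kdr were lower without overlap, as were 18.0% of all genes, and none was higher without overlap, as were 2.26%. Pecam1 had the lowest adjusted p of the 9, 0.151, with a log2 fold change of -1.64 ± 0.35, or -1.25 relative to the all-gene median of -0.40. With a block for the mice numbered 4, Pecam1 had an adjusted p of 0.0441, and 5 of 9 genes passed the unadjusted limit, Selp as higher, with 3.25% of all genes, and Pecam1, Cdh5, Kdr and Plvap as lower, with 27.3% of all genes. The adjusted limit was passed by 1.75% of all genes in that fit. Without the block, Cdh5 differed by -1.21 ± 0.52 (adjusted p = 0.244), Kdr by -1.26 ± 0.49 (adjusted p = 0.225) and Plvap by -1.37 ± 0.67 (adjusted p = 0.27).

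These 4 differences were larger in the mice numbered 2 and 3. Within the mice numbered 1 to 3 the differences were -2.05 for Pecam1, -1.80 for Cdh5, -1.83 for Kdr and -2.46 for Plvap, and within those numbered 4 they were -0.84, -0.02, -0.13 and 0.80. Without mouse 4 of the colitis group receiving BBR, all 4 passed the adjusted limit, with adjusted p-values of 0.00836 for Pecam1, 0.0366 for Cdh5, 0.0496 for Kdr and 0.021 for Plvap, where 14.7% of all genes passed it. Without mouse 3 of that group, Cdh5 was at -0.75 and Kdr at -0.84, and Pecam1 alone passed the unadjusted limit. Pecam1 alone passed also when mouse 1 or mouse 3 of the normal group receiving BBR was left out.

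Of the adhesion genes in this comparison, Selp differed by 1.01 ± 0.46 with an adjusted p of 0.255 and a 95% interval from -0.002 to 2.01. Icam1 (0.27 ± 0.48), Vcam1 (-0.23 ± 0.51), Madcam1 (-0.15 ± 0.52) and Ackr1 (-0.22 ± 0.43) had intervals that spanned 0 widely, and after quantile normalization the estimates of Vcam1, Madcam1 and Ackr1 were positive (0.32, 0.46 and 0.35). Under that scaling Selp passed the unadjusted limit as higher and Pecam1 alone as lower, and all genes split into 994 higher and 900 lower in place of 363 and 2647. Tnf differed by 4.41 ± 0.74 (adjusted p = 0.0719) in the same mice. Of the 32 endothelial identity genes 31 were lower, 14 at the unadjusted limit, with a median of -0.99, and all 10 pericyte and all 14 smooth muscle genes were lower, 6 and 7 at the limit. After quantile normalization 8 endothelial identity genes (median -0.40), 4 pericyte and 2 smooth muscle genes were lower at the limit, with median centring 6, 3 and 2, and with the 8 mice numbered 1 to 3 the counts were 19, 7 and 12. The share of all genes lower at this limit moved as well, from 17.3% in the main fit to 5.88%, 4.06% and 35.3% in these. The integrin list had a median of -0.57 with 5 genes lower at the limit, and after quantile normalization a median of -0.09 with 1 lower and 1 higher (-0.12 with median centring, also 1 and 1). Pan-leukocyte genes had a median of -0.23, which was 0.24 after quantile normalization and 0.23 with median centring, with none past the limit in these fits. In the same mice 15 of 15 granulocyte genes were higher, 6 at the limit, a count that was 9 after quantile normalization and 12 with the 8 mice.

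Whether DSS acted differently with BBR was tested as the interaction of both. None of the 9 genes passed the unadjusted limit, which 0.699% of all genes passed as higher and 1.72% as lower, and limma called no gene of the table (0%) at the adjusted limit. Vcam1 (-1.32 ± 0.72), Madcam1 (-1.31 ± 0.74) and Icam1 (-1.15 ± 0.67) had the most negative estimates, with 95% intervals from -2.89 to 0.25, -2.92 to 0.30 and -2.62 to 0.32. Pecam1 (-0.27 ± 0.50), Cdh5 (-0.19 ± 0.74), Kdr (0.003 ± 0.69) and Plvap (-0.08 ± 0.95) were near 0, with intervals that reach beyond 1 on the log2 scale in either direction for Cdh5, Kdr and Plvap and from -1.35 to 0.81 for Pecam1. A difference between the adhesion genes and the structural genes in this term was not tested.

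Levels were also divided by Pecam1 of the same mouse, a choice made after the values were seen, to set the other genes against an endothelial gene without scaling between mice. Icam1 per Pecam1 was 0.115 to 0.244 in normal mice and 1.09 to 1.203 in colitis mice, the narrowest colitis range of the 8 ratios relative to its mean. Vcam1 per Pecam1 was 0.122 to 0.379 and 1.09 to 2.06, Madcam1 0.057 to 0.092 and 0.362 to 0.589, Selp 0.022 to 0.029 and 0.199 to 0.307, and Ackr1 0.16 to 0.221 and 0.429 to 0.729. These 5 of 8 ratios were higher in colitis mice without overlap and none lower, but with Pecam1 lower in colitis so were the ratios of 52.4% of all genes, against 1.13% lower, so the count is near the background. The ratios of Cdh5, Kdr and Plvap overlapped, with mean ratios in colitis 1.21, 1.03 and 1.14 times those of normal mice, where the mean ratio of Selp was 10.04 times and that of Icam1 6.96 times the normal one.

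Under BBR the same 5 ratios were higher in colitis mice than in normal mice without overlap, as were those of 63.3% of all genes, and none was lower, as were 0.268%. Between colitis mice with and without BBR all 8 ratios overlapped. Icam1 per Pecam1 was 0.371 to 1.65 with BBR, Vcam1 per Pecam1 0.467 to 1.29 and Selp per Pecam1 0.056 to 0.447, with the highest value of each in mouse 3 of the BBR group, the mouse with the lowest Pecam1.

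**Figure D4:**
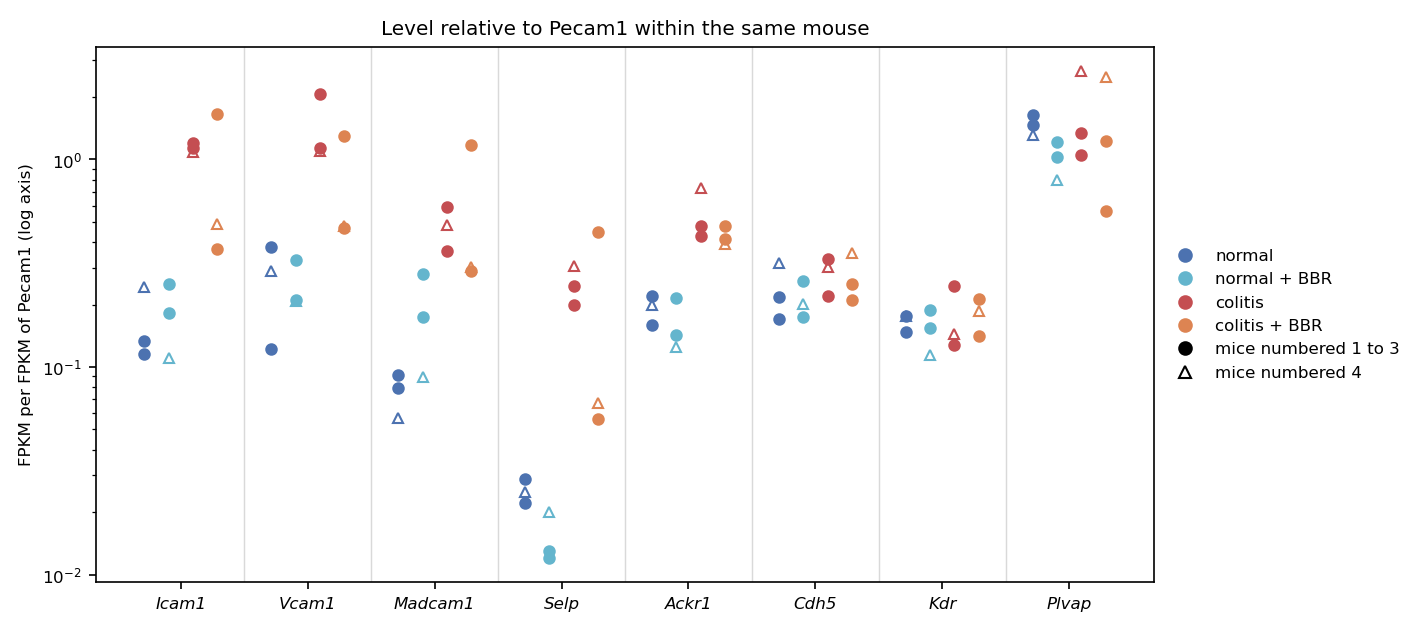
FPKM of 8 genes divided by FPKM of Pecam1 in the same mouse (y axis, log scale) in the 4 groups; filled circles are mice numbered 1 to 3 and open triangles mice numbered 4. Icam1 to Ackr1 lie higher in both colitis groups than in both normal groups, whereas Cdh5, Kdr and Plvap overlap, with Kdr between 0.114 and 0.245 in all 12 mice.

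The members were last compared with each other and with all genes over the 12 mice, on log2(FPKM + 0.1). The 4 structural genes varied together, with Pearson's r of 0.80 to 0.95 between pairs, the highest for Pecam1 and Kdr. Icam1 went with Selp (r = 0.79) and Vcam1 (r = 0.77), and its r with the structural genes was between -0.36 and -0.01. Selp had an r of -0.60 with Pecam1, and Ackr1 was closest to Plvap (r = 0.66). These values describe 12 mice that share groups and the shift of the mice numbered 4, and carry no test.

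Among the 11942 other genes with a mean of at least 1 FPKM, the 3 most like Icam1 were the guanylate-binding proteins Gbp9 (r = 0.939) and Gbp5 (0.919) and Ncf4 (0.92), a subunit of the phagocyte oxidase. Vcam1 was most like Npl (0.927), the Fc receptor Fcgr2b (0.911) and Ms4a4a (0.908). Madcam1 was most like Tgtp2 (0.821), 9130008F23Rik (0.82) and Gbp6 (0.793). For Selp, with 11943 genes searched, they were the metalloproteinase Mmp28 (0.958), the kinase Pim1 (0.957) and Apobec3 (0.937), and for Ackr1 Rpap3 (0.862) and Bmyc (0.81) were among them. Pecam1 and Kdr were both closest to Cd300lg, an endothelial mucin-like receptor (0.966 and 0.964). Pecam1 was next to Adgrl4 (0.966), an adhesion GPCR of endothelium, and Asrgl1 (0.965), and Kdr to Sh3bp5 (0.958) and Itm2c (0.957). Cdh5 was closest to Ttl (0.975), Prickle1 (0.971) and Clasp1 (0.968), and Plvap to Esam (0.983), a junctional adhesion molecule of endothelium, Dtx4 (0.977) and Emp2 (0.963).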

How the data were processed

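Rectal RNA of 12 mice, 3 in each of 4 groups, was sequenced as single-end 50-base reads by the study's methods, while the sample labels name another library kit and sequencer. The authors filtered the reads, aligned them with Bowtie2 2.2.5 to a genome named mm9 in the submitters' processing notes, and estimated expression with RSEM 1.2.12. The deposited table holds FPKM values for 17734 genes, a unit inferred from the values, and TPM could not be told apart. No counts were used, and depth was inferred from the steps of 1799 single-transcript genes. A filter at a mean of 0.1 FPKM left 15315 genes, which were fitted as log2(FPKM + 0.1) with limma 3.58.1 (R 4.3.3), with 1 mean per group, a trend, and Benjamini-Hochberg adjustment with a limit of 0.05. The fit was tested on simulated data. Ratios, motifs and figures were made with matplotlib 3.10.9, SciPy 1.17.1, pandas 2.3.3 and NumPy 2.4.6 under Python 3.11.15.

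Groups and mouse numbers came from the labels. Deviations from the group means in same-numbered mice correlated at 0.29, 0.11 and 0.66 between normal mice with and without BBR, the only groups sharing 3 numbers. The value of 0.66 is that of the mice numbered 4, and differently numbered mice of these groups reached 0.46 and 0.37. The labels give no pairing, and the main fit took none, with the replicate block as an alternative. The 10 genes, the 17 lists (246 entries, 239 present, for 231 distinct genes, 8 of which stand in 2 lists) and the alternatives were chosen with earlier results of these data known. All 10 genes were named. From each list up to 4 genes past a limit, with a mean of at least 1 FPKM, could be named, and for each of the 9 tested genes the 3 genes with the highest Pearson's r. Some of these results are not reported here. Integrin chains and Selplg were named for their ligands. The alternatives were pseudocounts of 1 and 0.01, a filter at 1 and none, quantile normalization, median centring, a fit without the trend, a fit restricted to the compared groups, the replicate block, a separate block for mouse number 4, only the 8 mice with lower numbers, and leaving out each mouse.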

Additional observations from a re-analysis of the deposited data

How the results depend on the processing

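Of the 45 member results (9 genes in 5 comparisons), 27 kept their direction in every alternative and 18 changed sign in at least one. In colitis against normal only Ackr1 changed sign, and the other 8 genes kept theirs. The alternatives were those listed under the processing, and their values follow where a call or a direction changed. The SE of the member fits was 0.35 to 0.67 for a comparison of 3 mice against 3, and Sele was below the filter. The table gives 1 unit only, so TPM against FPKM was not run.

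For colitis against normal, the count at the adjusted limit was 1 in place of 0 with quantile normalization (Selp), 1 with the mice numbered 4 as a block and 1 with the replicate block (Pecam1 in both), and 0 in every fit that left out a mouse. At the unadjusted limit it was 3 with the 8 mice numbered 1 to 3, and 3 to 5 when a mouse was left out. The Ackr1 value was -0.12 with the replicate block, -0.18 with the 8 mice, and -0.21 to 0.42 when a mouse was left out.

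For colitis with BBR against colitis, the count at the unadjusted limit was 1 with the compared groups alone (2.92% of all genes lower) and 1 with the 8 mice (6.21% lower). It was 0 (without colitis mouse 2 or BBR mouse 2) to 4 when a mouse was left out. Leaving out a mouse gave -0.75 to 0.071 for Madcam1, -0.70 to 0.034 for Pecam1, -0.89 to 0.12 for Cdh5 and -0.59 to 0.27 for Kdr.

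For normal with BBR against normal, the count at the unadjusted limit was 2 with the compared groups alone (1.44% of all genes higher and 3.47% lower) and 0 to 1 when a mouse was left out. Vcam1 was 0.058 with quantile normalization, 0.026 with centring on the median, 0.26 with the 8 mice, and -0.46 to 0.30 when a mouse was left out. Cdh5 was 0.13 and Kdr 0.055 with the 8 mice, and leaving out a mouse gave -0.34 to 0.09 for Cdh5, -0.32 to 0.008 for Kdr and -0.13 to 0.42 for Icam1. The replicate block, in which shared numbers are treated as pairs, changed no call of the 9 genes here. The other comparisons share 2 numbers. Over all groups, same-numbered mice correlated at a mean of 0.34 over 13 pairs and differently numbered mice at -0.10 over 41. Among numbers 1 to 3 the means were 0.21 and 0.19, so a pairing by number is not shown.

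For colitis with BBR against normal with BBR, the count at the adjusted limit was 1 with a block for the mice numbered 4 (1.75% of all genes). It was 2 with the 8 mice (Pecam1 and Plvap), where 15% of all genes passed, and 0 to 4 when a mouse was left out. At the unadjusted limit it was 5 with a block for the mice numbered 4 and 1 to 4 when a mouse was left out. Icam1 was -0.20 with the 8 mice and -0.035 to 0.72 when a mouse was left out. With quantile normalization and with centring, Vcam1 was 0.32 and 0.23, Madcam1 0.46 and 0.31, and Ackr1 0.35 and 0.24, and leaving out a mouse gave -0.38 to 0.06, -0.57 to 0.22 and -0.53 to 0.13.

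For the interaction, the count at the unadjusted limit was 1 with the replicate block (3.79% of all genes lower), 1 with the 8 mice (2.51% lower), and 0 to 2 when a mouse was left out. Kdr was -0.013 with a pseudocount of 0.01, -0.036 with the replicate block, -0.65 with the 8 mice, and -0.41 to 0.45 when a mouse was left out. Plvap was 0.032 with a pseudocount of 1, 0.12 with quantile normalization, 0.037 with centring, and -0.99 to 0.50 when a mouse was left out. Leaving out a mouse gave -0.64 to 0.059 for Ackr1, -0.66 to 0.071 for Pecam1 and -0.74 to 0.27 for Cdh5. The cause of these changes was not tested.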

Other observations

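The other cell types listed beside the vessel genes are given for colitis against normal mice, as counts from lists chosen with earlier results known. Of 12 fibroblast genes 10 were lower, 4 at the unadjusted limit, with a median of -0.58 against -0.32 for all genes. The count was 2 after quantile normalization (median -0.37), 1 with median centring (median -0.24) and 2 with the 8 mice numbered 1 to 3 (median -0.24). Of all genes 15.9% were lower at the limit in the main fit, and 9.93%, 8.13% and 27.4% in these. Among the genes past the limit were Mfap5 (-1.34 ± 0.32, adjusted p = 0.0647) and Pi16 (-1.56 ± 0.62, adjusted p = 0.186), which mark fibroblasts of the adventitia around vessels. Their summed level was 423 to 634 FPKM in normal mice and 239 to 858 FPKM in colitis mice. Of 14 genes of the colonic and rectal epithelium 9 were lower and 5 higher, none past either limit, with a median of -0.11. The median was -0.16 after quantile normalization and 0.23 with median centring, so its direction depends on the scaling. Of 5 tested squamous epithelial genes, which would mark tissue of the anal canal, 3 were higher, 2 of them at the unadjusted limit, with a median of 1.43. Their level was low throughout, with a summed level of 1.37 to 2.80 FPKM in normal mice, 2.30 to 8.33 in colitis mice, 1.30 to 2.34 in normal mice receiving BBR and 0.65 to 5.16 in colitis mice receiving BBR, and Krt4 was at 0 in 10 of 12 mice.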
